A study of Xenopus laevis with 3 samples.

Results

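Pigment cell genes were examined in the inner ear of *Xenopus laevis* larvae. The genes were *tyrp1*, *tyr*, *dct*, *pmel*, *mitf*, *slc45a2*, *oca2*, *mlana* and *kit*, and a probe set (Xl-PSID) belonged to the group when the platform's annotation gave it one of these 9 symbols after removal of the ending that marks the L or S copy. Of the 32635 Xl-PSIDs on the array, 8 met this rule, and they stood for 5 symbols and 6 gene copies. The symbols *tyr*, *dct*, *oca2* and *mlana* were carried by no Xl-PSID of that annotation, and their levels were not analysed here. The same holds for *tyrp1.S*, *pmel.L* and *mitf.S*, copies that the RefSeq gene table lists beside those measured.

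RNA came from the dissected inner ears of larvae of stages 50 to 52, which were 15 to 21 days old and are designated *s50*. The 3 pools held 15, 38 and 24 animals, with 1 array for each, and the arrays are named s50_1, s50_2 and s50_3. All pools are of this single condition, without a treatment or a genetic alteration in the labels. The sources used here do not state whether the larvae came from a pigmented stock. Values are GCRMA log2 intensities, means are given ± SD over the 3 pools, and 3 arrays leave these means and SDs imprecise. The medians of the arrays lay between 7.45 and 7.53.

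Melanin is made inside melanosomes, organelles of melanocytes and of the pigment epithelium of the eye. Tyrosinase (*tyr*) starts the synthesis, and the related enzymes encoded by *dct* and *tyrp1* act on later intermediates. The protein of *pmel* forms the fibrils on which melanin is laid down, and the transporters encoded by *slc45a2* and *oca2* help to set the conditions inside the melanosome under which tyrosinase works. The transcription factor encoded by *mitf* is the central regulator of these genes in melanocytes, and the receptor tyrosine kinase encoded by *kit* supports melanoblast survival and migration in mammals. In mammals melanocytes are a normal part of the inner ear, where those of the stria vascularis take part in making the endolymph.

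The melanosome genes *tyrp1*, *pmel* and *slc45a2* were bright on every array, *kit.S* was present but uneven between the pools, and *mitf.L* and *kit.L* lay at the floor of the arrays. An Xl-PSID was counted as detected from a mean of 4 upward, which is the intensity filter of the study's methods for upregulation. Of the 8 Xl-PSIDs, 4 were detected, against 64.8% of all Xl-PSIDs and 73.3% of those with 1 gene symbol. The detected ones were the single Xl-PSIDs of *tyrp1.L*, *pmel.S*, *slc45a2.L* and *kit.S*, and each of them was above 4 on all arrays. The other 4 were below 4 on all arrays. The median of the 8 means was 5.08, beside 7.49 over all Xl-PSIDs and 8.78 over those with 1 gene symbol. No Xl-PSID of the group had a mean near 5.08, since the means lay either between 1.90 and 2.12 or between 8.05 and 13.24. The intensity of an Xl-PSID depends on its probes as well as on its transcript, so these levels do not rank the transcripts against each other.

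**Figure D1:**
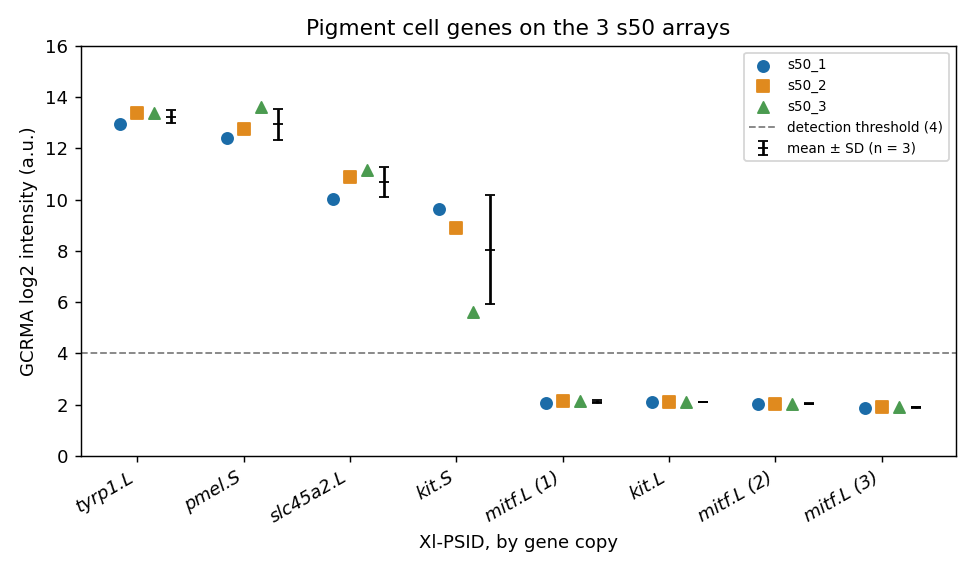
GCRMA log2 intensity (vertical axis, arbitrary units) of the 8 Xl-PSIDs of the pigment cell genes (horizontal axis, by gene copy) on the 3 s50 arrays. Points are single arrays, black marks are means ± SD over the arrays, and the dashed line is the detection threshold of 4. The Xl-PSIDs of *tyrp1.L*, *pmel.S*, *slc45a2.L* and *kit.S* lie above the line on all arrays and the other 4 lie near 2.

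For the enzyme gene *tyrp1.L* (Xl2.19693.1.S1_at), the arrays s50_1, s50_2 and s50_3 gave intensities of 12.95, 13.38 and 13.39. Its values on s50_2 and s50_3 were nearly equal, with s50_1 below both. The mean was 13.24 ± 0.25 (n = 3), and 97.1% of all Xl-PSIDs had a mean at or below it. The highest and lowest arrays differed by 0.44, and of the 1112 detected Xl-PSIDs within 0.5 of its mean, 52.8% had a range at least as large. The spread of *tyrp1.L* was thus ordinary for its level.

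The fibril gene *pmel.S* (Xl2.45445.1.S1_at) had 12.42, 12.76 and 13.62 on the arrays in the same order. The array s50_3 stood highest, and the other arrays were closer to each other. The mean was 12.93 ± 0.62, with 95.9% of Xl-PSIDs at or below it. The range of 1.20 corresponds to a 2.30-fold difference in intensity between s50_3 and s50_1, and 7.16% of the 1396 detected Xl-PSIDs within 0.5 of its mean had a range as large or larger. The median range of those Xl-PSIDs was 0.49.

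The transporter gene *slc45a2.L* (Xl2.51353.1.S1_at) had 10.04, 10.88 and 11.16 on s50_1, s50_2 and s50_3. Here s50_1 was set apart below the other arrays, as it was for *tyrp1.L*. The mean was 10.69 ± 0.59, and 78.8% of Xl-PSIDs were at or below it. The range of 1.12 was a 2.18-fold difference, and 29.8% of the 3385 detected Xl-PSIDs at about this level varied as much or more.

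The receptor gene *kit.S* (Xl2.21648.1.S1_at) had 9.64 and 8.88 on s50_1 and s50_2, and 5.63 on s50_3. The low array was s50_3, which stood 3.25 below the next value. The mean was 8.05 ± 2.13, and the range of 4.02 corresponds to a 16.2-fold difference between s50_1 and s50_3. Of the 2254 detected Xl-PSIDs within 0.5 of its mean, 58 (2.57%) had a range as large or larger, and their median range was 1.19. Among the 4 detected pigment cell Xl-PSIDs it alone reached a range of 1.5, as 26.5% of all detected Xl-PSIDs did. With an intensity above 4 on s50_3 as well, it counted as detected whichever array was left out, while without s50_3 none of the 4 reached that range.

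The other *kit* copy behaved differently on these arrays. The Xl-PSID of *kit.L* (Xl2.30.1.S1_at) had 2.10, 2.11 and 2.10 on s50_1, s50_2 and s50_3, a range of 0.016. The 24 control Xl-PSIDs for transcripts of *Bacillus subtilis*, which frog RNA should not contain, lay between 1.83 and 2.17 over the 3 arrays. All values of *kit.L* fell inside these pooled limits. On s50_1 alone the highest control had 2.08, slightly below the 2.10 of *kit.L*. A value at the floor is an upper bound for the signal of the Xl-PSID, and its small differences between arrays carry no order.

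Each of the 3 Xl-PSIDs of the regulator *mitf.L* was at this floor. The first (Xl2.23558.1.S1_a_at) had 2.074, 2.127 and 2.155 on the 3 arrays in order, a mean of 2.12 ± 0.041. The next (Xl2.23558.4.S1_a_at) had 2.002, 2.028 and 2.038, a mean of 2.02 ± 0.018. The last (Xl2.23558.4.A1_at) had 1.882, 1.906 and 1.913, a mean of 1.90 ± 0.016. Signal for *mitf.L* was therefore not detectable with any of its Xl-PSIDs in any pool, and *mitf.S* was not analysed here. No sequence of the probes was at hand to show which part of the transcript they match.

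**Figure D2:**
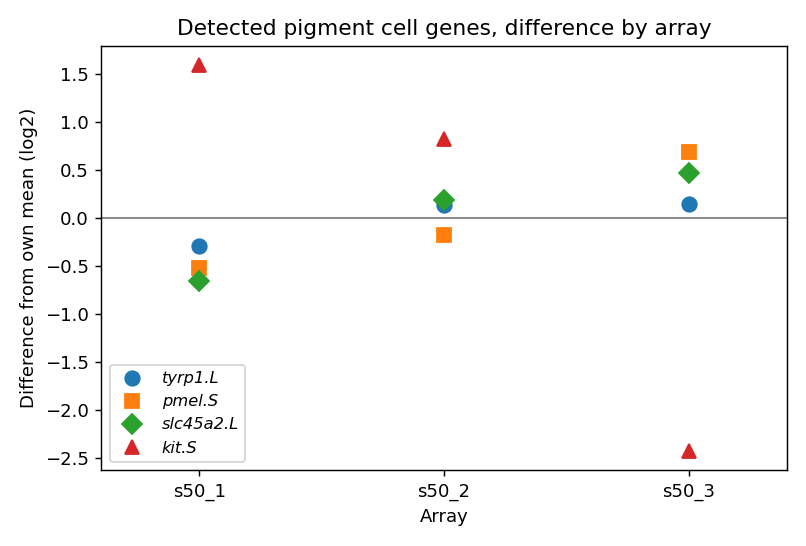
Difference of each detected pigment cell gene from its own mean over the 3 arrays (vertical axis, log2) on each s50 array (horizontal axis). The Xl-PSIDs of *tyrp1.L*, *pmel.S* and *slc45a2.L* are below their means on s50_1 and above them on s50_3, and *kit.S* lies 1.59 above its mean on s50_1 and 2.42 below it on s50_3.

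The melanosome genes and *kit.S* differed between s50_1 and s50_3 in opposite directions. On s50_1 the difference from the own mean was -0.29 for *tyrp1.L*, -0.51 for *pmel.S* and -0.66 for *slc45a2.L*, and it was 1.59 for *kit.S*. On s50_3 it was 0.15, 0.69 and 0.47 for the melanosome genes in the same order, and -2.42 for *kit.S*. On s50_2 it was 0.14, -0.18 and 0.19 for them and 0.83 for *kit.S*, so there only *pmel.S* was opposite to *kit.S*. The lowest array was s50_1 for 3 of the 4 detected Xl-PSIDs, and this was so for 42.3% of all detected Xl-PSIDs. The same 3 had their highest value on s50_3, and this order, lowest on s50_1 and highest on s50_3, was that of 31.3% of all detected Xl-PSIDs. For *tyrp1.L* the highest array was decided by a difference of 0.012, and after quantile normalization of the arrays 2 genes had this order. The opposite order of *kit.S*, highest on s50_1 and lowest on s50_3, was found in 23.7% of all detected Xl-PSIDs. With 1 array for each pool these differences between pools have no replicate and were not tested.

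The pools also differed in ways recorded in the labels. The mean body length of the animals was 2.99 ± 0.28 cm for s50_1, 3.07 ± 0.25 cm for s50_2 and 3.19 ± 0.27 cm for s50_3. The mean body weight was 0.15 ± 0.04, 0.14 ± 0.03 and 0.16 ± 0.03 g in the same order, so s50_2 was the lightest. Labelling of s50_3 started from 0.7 µg of total RNA rather than 1 µg. The part of these differences in the levels of the pigment cell genes was not tested. In whole organs fewer cells of a type and less RNA in each cell cannot be told apart.

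Among all detected Xl-PSIDs, the pattern of *kit.S* over the arrays, taken as differences from the own mean, was matched within 0.1 on every array by 11 of 21155. The nearest with a gene name were *cdca4.S* (largest difference on an array 0.055), *smad1.L*, which transmits bone morphogenetic protein signals (0.063), and *rnd3.L*, which encodes a small GTPase (0.064). The intensity of *smad1.L* was 12.05, 11.20 and 7.94 on the 3 arrays in order. A likeness over 3 arrays is a description of these pools.

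Genes listed for melanin synthesis and the melanosome membrane were detected as well, and several of them also serve other cells. The list held 9 symbols beside the genes above. It was measured by 8 Xl-PSIDs for 5 of them, and all 8 were detected with a median of 9.36. The 5 were *gpr143*, *ddt*, *mif*, *tpcn2* and *clcn7*, while *slc24a5*, *mc1r*, *atp7a* and *slc7a11* were not measured. Of the Xl-PSIDs with 1 gene symbol, 73.3% were detected and the median was 8.78. The receptor gene *gpr143*, which acts in the melanosome membrane, had 7.32 ± 0.41 and 9.81 ± 0.22 on the Xl-PSIDs of its L copy and 7.98 ± 0.58 for its S copy. The brightest was *mif.L* (14.13 ± 0.07), which encodes a cytokine with tautomerase activity that many cell types make. The related tautomerase gene *ddt.L* had 11.14 ± 0.36. The ion channel gene *tpcn2.L* of lysosomes and melanosomes had 9.48 ± 0.16. Of these 8 Xl-PSIDs, 1 was lowest on s50_1 and highest on s50_3 (12.5%, beside 31.3% of all detected Xl-PSIDs) and 2 had the opposite order (beside 23.7%).

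Genes of melanosome structure and transport were mostly detected, with 28 of 30 Xl-PSIDs for 19 measured symbols (93.3%, beside 73.3% of the Xl-PSIDs with 1 gene symbol) and a median of 9.67, beside 8.78 over those with 1 symbol. Many of these serve lysosomes and related organelles in most cells. The glycoprotein gene *gpnmb.L*, related to *pmel*, had 11.17 ± 0.23. The Rab GTPase gene *rab38.S*, which helps to carry melanogenic enzymes to the melanosome, had 8.70, 9.26 and 10.39 on the arrays in order. This is the order of *pmel.S*, which 4 of the 28 detected Xl-PSIDs had (14.3%, beside 31.3% of all detected Xl-PSIDs), while 5 had the opposite order (17.9%, beside 23.7%). The gene *rab27a*, whose product ties melanosomes to myosin for transport, had 6.48 ± 0.12 for its L copy and 5.71 ± 0.79 for its S copy. The brightest were *bloc1s2.L* (12.06, 12.63 and 12.51 on the arrays in order), *ap3b1.L* (11.72 ± 0.64), *gpnmb.L* and *bloc1s4.L* (11.16 ± 0.49), of which the first and the last encode subunits of a complex for the biogenesis of lysosome-related organelles.

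**Figure D3:**
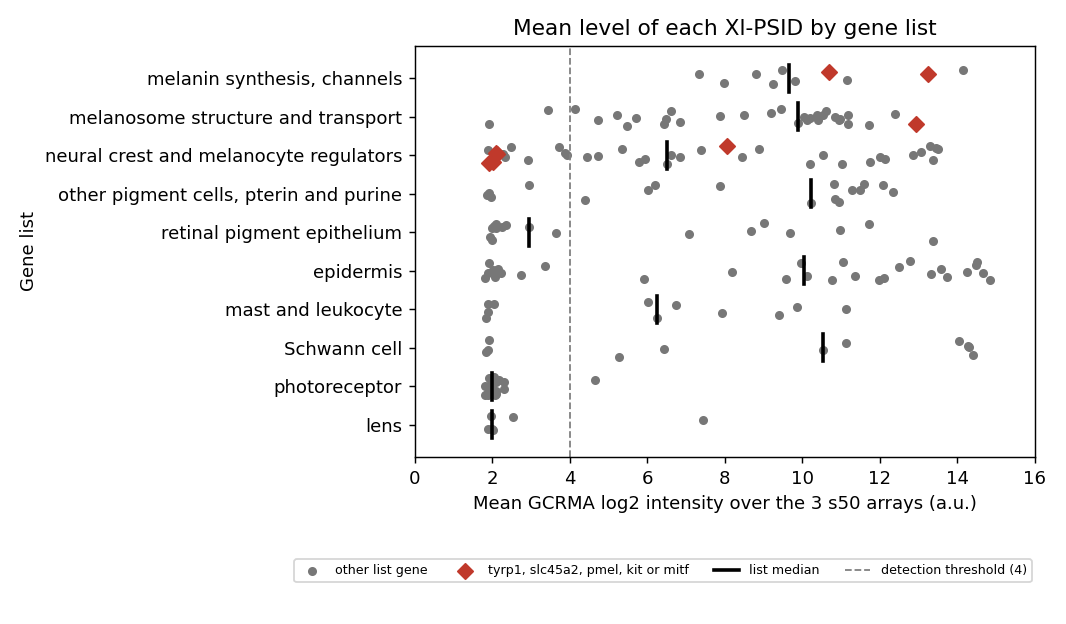
Mean GCRMA log2 intensity over the 3 s50 arrays (horizontal axis, arbitrary units) of each Xl-PSID in the gene lists (vertical axis). Diamonds are the pigment cell genes of the rule, circles are other members, black bars are list medians and the dashed line is the detection threshold of 4. Of 26 photoreceptor Xl-PSIDs 1 is above the line, while 7 of 17 Xl-PSIDs of the retinal pigment epithelium are (41.2%). Over all Xl-PSIDs the share is 64.8%.

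Regulators of the neural crest, from which melanocytes arise, ranged from the floor to means above 13. Beside *mitf* and *kit*, 23 of 32 Xl-PSIDs for 18 measured symbols were detected (71.9%). The share was 64.8% of all Xl-PSIDs and 73.3% of those with 1 gene symbol. The median was 6.73, beside 7.49 over all and 8.78 over those with 1 symbol. The gene *sox10.L*, which encodes an activator of *mitf* in melanocytes and a regulator of Schwann cells, had 11.14, 10.50 and 9.97 on s50_1, s50_2 and s50_3. The Xl-PSIDs of *pax3.L*, another regulator of *mitf*, disagreed, with means of 13.51, 13.44, 6.51, 2.32 and 1.89. Those of *pax3.S* had 2.47 and 2.27. The ligand gene of the *kit* receptor had 5.93 ± 0.39 for *kitlg.L* and 3.73 ± 0.45, below the threshold, for *kitlg.S*. The endothelin receptor gene *ednrb2.S* had 10.39, 11.00 and 11.70 on s50_1, s50_2 and s50_3, the order seen for the melanosome genes and for 3 of the 23 detected regulator Xl-PSIDs (13.0%, beside 31.3% of all detected Xl-PSIDs). The brightest beside *pax3* were *tbx2.S* (13.38 ± 0.14) and *id3.L* (13.29 ± 0.08).

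The order of *kit.S* recurred among these regulators. Of the 23 detected Xl-PSIDs, 12 (52.2%) were highest on s50_1 and lowest on s50_3, beside the 23.7% of all detected Xl-PSIDs. The 12 are not separate genes, since *sox9*, *tbx2* and *id3* each counted with both copies. Which cells of the inner ear carried these regulators was not tested. Some varied little, with a range of 0.14 for *id3.L* and 0.26 for *tbx2.S*. The Xl-PSID of *pax3.L* among them had a mean of 6.51, and a brighter one of *pax3.L* (13.15, 13.35 and 13.82 on the arrays in order) had the opposite order. The crest factor gene *snai1.S* had 12.63, 12.38 and 10.19 on the arrays in order. For *tfap2b.L* the values were 8.71, 7.07 and 4.75, and for *twist1.L* they were 7.49, 3.51 and 2.33. These 3 genes were picked with their values in view. On s50_2 and s50_3 *twist1.L* was below 4, so it counted as detected only through its value on s50_1. The difference between s50_3 and s50_1 had a median of -0.55 over the 23 Xl-PSIDs, and of 0.090 over all detected Xl-PSIDs.

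A list for other pigment cells held mostly enzymes of pterin and purine synthesis, which supply the pigments of yellow and reflecting pigment cells and also serve general metabolism. Of its 22 symbols 12 were measured, and *gch1* was not among them. Of 17 Xl-PSIDs 13 were detected (76.5%, beside 64.8% of all and 73.3% of those with 1 gene symbol). Of the 13, 8 (61.5%) were lowest on s50_1 and highest on s50_3, beside 31.3% of all detected Xl-PSIDs. These 8 are not separate genes, since *atic.L* counted with both of its Xl-PSIDs and *qdpr* with both copies. One of the 8 was *mycbp2.S* (7.87 ± 0.64), which encodes a ubiquitin ligase rather than such an enzyme. The transcription factor gene *pax7.L* (1.96 ± 0.027) of the list was not detected. Nor were the Xl-PSIDs of the purine gene *gart.L* with means of 1.87, 1.91 and 2.95, while another of *gart.L* had 4.39. The median difference between s50_3 and s50_1 was 1.10. Among the brightest were *pts.L* (12.34 ± 0.18) and *qdpr.L* (11.47 ± 0.36), genes of the biopterin pathway, and *pnp.L* (12.07 ± 0.44) and *atic.L* (11.60 ± 0.68), genes of purine metabolism. Of these, *qdpr.L* and *atic.L* had the order of *pmel.S*. Of the 13, 2 had the opposite order (15.4%, beside 23.7% of all detected Xl-PSIDs). These were *pnp.L* and *pcbd1.L* (7.58, 7.07 and 3.93 on the arrays in order).

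**Figure D4:**
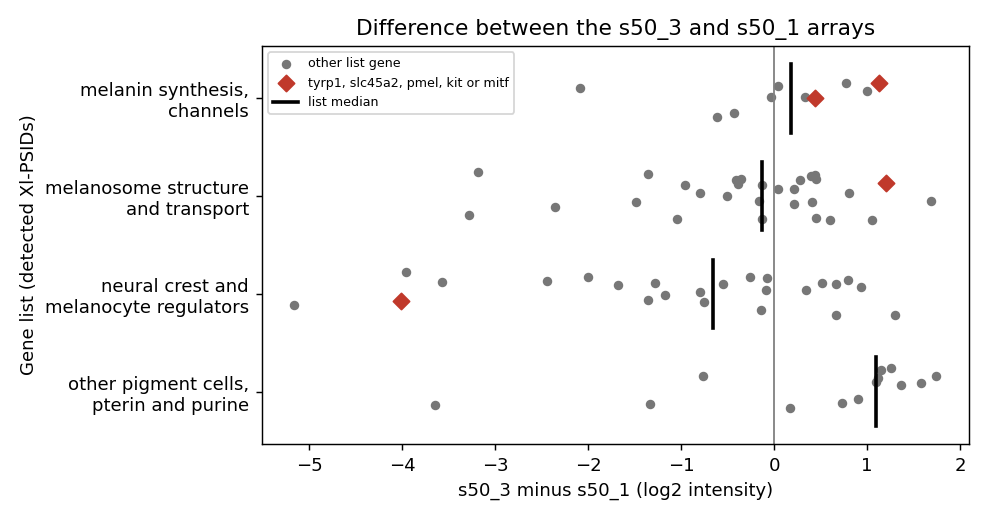
Difference of the log2 intensity between s50_3 and s50_1 (horizontal axis) for the detected Xl-PSIDs of 4 pigment gene lists (vertical axis). Diamonds are *tyrp1.L*, *slc45a2.L*, *pmel.S* and *kit.S*, circles are other members and black bars are list medians. The median is -0.66 for the neural crest and melanocyte regulators and 1.10 for the pterin and purine genes, members of the group included.

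Melanosome genes are also used by the retinal pigment epithelium, and markers of that tissue were in part detected. Of 17 Xl-PSIDs for 8 symbols, 7 were detected (41.2%), fewer than the 64.8% of all Xl-PSIDs and the 73.3% of those with 1 gene symbol. Those with means below 4 included *rgr.S* (3.65), *lrat.L* (2.94) and *ttr.L* (2.05). The copy *rdh5.L* was not detected either, while *rdh5.S* had a mean of 8.66. The sum of the linear intensities of the list was 13.94, 14.40 and 14.14 as log2 on s50_1, s50_2 and s50_3. Most of this sum came from the single Xl-PSID of *otx2.L*, so it does not stand for the list as a whole. The visual cycle gene *rpe65* had 10.39, 11.17 and 11.38 for its S copy and 8.44, 9.72 and 10.86 for its L copy. Both copies had their lowest value on s50_1 and their highest on s50_3, an order that 3 of the 7 detected Xl-PSIDs had (42.9%, beside 31.3% of all detected Xl-PSIDs). The opsin gene *rgr.L* had 11.77, 11.88 and 11.51, and *otx2.L*, a regulator of eye, brain and ear, had 13.26, 13.67 and 13.20. Both of these were lowest on s50_3. The Xl-PSIDs of *rlbp1.L* disagreed, with 9.01, 2.36 and 2.24. In contrast, 25 of 26 Xl-PSIDs of a photoreceptor list were below 4 on every array, *pde6g.S* (4.65 ± 0.38) being the exception, and 5 of 6 lens Xl-PSIDs were too. The 4 Xl-PSIDs of *crx*, a gene in both the retinal pigment epithelium and the photoreceptor list, lay between 1.95 and 2.09. The crystallin gene *cryba1.L* was the other lens Xl-PSID, with 5.54, 8.18 and 8.56. The part of eye tissue in the levels of the pigment cell genes was not tested.

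Markers of other cell types that could bear on these genes were measured as well. Of 32 epidermal Xl-PSIDs 20 were detected (62.5%, beside 64.8% of all and 73.3% of those with 1 gene symbol). Of the 20, 8 were lowest on s50_1 and highest on s50_3 (beside 31.3% of all detected Xl-PSIDs), and 0 had the order of *kit.S* (beside 23.7%). The summed intensity was 17.40, 17.43 and 17.74 as log2 on the arrays in order, and most of it came from the Xl-PSIDs of *krt19*. The 4 brightest Xl-PSIDs of this list were all of the keratin gene *krt19*, up to 14.83 ± 0.23 for *krt19.S*. The adhesion gene *epcam.S* had 13.72 ± 0.22, and *epcam.L* had 13.31. Further detected genes were *perp.S* (12.77), *ppl.L* (from 10.11 to 12.11 on its Xl-PSIDs), *evpl.L* (10.77) and *cdh1.S* (9.57). So were *dsp* (9.95 for its S copy and 8.19 for its L copy) and *dsc3.S* (5.91). The 3 Xl-PSIDs of the epidermal regulator *tp63* lay between 2.02 and 2.09. Other genes of the list were below the threshold too. These were *krt12.4* (2.23 for its L copy and 2.13 for its S copy), *grhl3* (2.12 and 2.74), *itln1.L* (1.90) and every Xl-PSID of *grhl1.L*. The copies of *krt70* differed, with 3.35 for *krt70.L* and 12.50 for *krt70.S*. A list for leukocytes and for mast cells, which also use *kit*, held 13 symbols, of which 6 were measured. The symbols *cpa3*, *hdc* and *ms4a2*, of mast cells, were not among these 6. Of 11 Xl-PSIDs 7 were detected (63.6%, beside 64.8% of all and 73.3% of those with 1 gene symbol), with sums of 12.06, 12.42 and 11.95. Most of each sum came from *cd74* and *gata2.L*, so it does not stand for the list as a whole. The study's introduction counts GATA2 among factors for which evidence points to a link with hearing loss or vestibular dysfunction. The brightest were *cd74.S* (11.11 ± 0.26), *gata2.L* (9.87 and 7.93 on its Xl-PSIDs) and *cd74.L* (9.40 ± 0.90). The leukocyte gene *coro1a.S* had 4.57, 6.21 and 7.27 on the arrays in order. The leukocyte gene *mpo.L* had 3.77, 7.10 and 7.86 on 1 of its Xl-PSIDs, which was below 4 on s50_1. Its other Xl-PSID (1.88) and that of *mpo.S* (1.90) were at the floor. Both *coro1a.S* and the detected Xl-PSID of *mpo.L* were lowest on s50_1 and highest on s50_3, opposite to *kit.S*. This was so for 3 of the 7 detected Xl-PSIDs of the list (42.9%, beside 31.3% of all detected Xl-PSIDs). The order of *kit.S* was that of 1 of the 7 (14.3%, beside 23.7%), the Xl-PSID of *gata2.L* with a mean of 7.93. Of the 7, 4 were lower on s50_3 than on s50_1, beside 9794 of all 21156 detected Xl-PSIDs. These 4 were both copies of *cd74* and both Xl-PSIDs of *gata2.L*. For *cd74.S* the difference was small, with 10.98 on s50_1 and 10.95 on s50_3. Both Xl-PSIDs of the leukocyte gene *ptprc.L* were at the floor (1.83 and 2.03). A Schwann cell list held 10 symbols, of which 5 were measured, and *mpz* was not among these. Of 11 Schwann cell Xl-PSIDs 8 were detected (72.7%, beside 64.8% of all and 73.3% of those with 1 gene symbol), with sums of 16.40, 16.31 and 16.30. Most of each sum came from *pmp22* and *mbp*. The Xl-PSIDs of *egr2.L* (1.92) and *ngfr.S* (1.89 and 1.84) were at the floor. Of the 8, 4 had the order of *kit.S* (50.0%, beside 23.7% of all detected Xl-PSIDs). These 4 were *sox10.L* of the regulator list, both Xl-PSIDs of *mbp.S* and 1 of *ngfr.L*. The other Xl-PSID of *ngfr.L* (7.88, 3.92 and 3.99 on the arrays in order) counted as detected only through its value on s50_1. The brightest of the list, *pmp22.L* (14.36, 14.33 and 14.49 on the arrays in order) and *pmp22.S* (14.29, 14.22 and 14.40), were highest on s50_3. The range of *mbp.L* was 0.074. Which cells carried the pigment cell transcripts was not tested.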

How the data were processed

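The 3 samples are RNA pools of larval inner ears on the Affymetrix *X. laevis* Genome 2.0 Array. The authors used JMP Genomics 5.0 for GCRMA preprocessing of the scans, and deposited a log2 intensity for each Xl-PSID on each array. These values were used as deposited. GCRMA draws low signals to a floor and normalizes the arrays to each other, so levels are relative to the rest of an array. The deposited arrays had close but unequal medians. The sources used here do not state whether it covered the arrays of other stages.

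Symbols came from the platform's annotation, which gave 1 symbol to 15505 Xl-PSIDs, several to 279 and none to 16851, so Xl-PSIDs without a symbol may measure further pigment cell genes. The gene identifiers of the 8 members gave the same symbols in the RefSeq gene table. Means, SDs, ranges and counts were computed in Python 3.11.15 with pandas 2.3.3, and the counting was tested on simulated data. A single condition allows no comparison of groups, so no test was run. From each list the 4 brightest Xl-PSIDs and a set of defining genes were to be named, and the lists of other cell types are given with part of these. The members and lists were chosen with earlier results of these data known, and the photoreceptor and lens lists were added after the levels of the retinal genes had been seen.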

Additional observations from a re-analysis of the deposited data

How the results depend on the processing

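The number of detected pigment cell Xl-PSIDs was 4 with thresholds of 3 and 5, with at least 4 on every array, with the median of the arrays, after quantile normalization, without Xl-PSIDs whose ID marks matches to several transcripts and without any one replicate. The number with a range of at least 1.5 was 1 (beside 26.5% of all detected Xl-PSIDs), and it was 3 with a range of 1. The share of all detected Xl-PSIDs with a range of 1 was not computed, and their median range was 0.92. Leaving out a replicate gave 0 to 1, with 0 without s50_3. The median level of 5.08 was 9.37 with the brightest Xl-PSID of each gene copy, with the mean of a copy's Xl-PSIDs, or without Xl-PSIDs of several transcripts, since *mitf.L* then counts at most once. Leaving out a replicate gave 4.70 to 5.68. The median difference of the detected members on s50_1 was -0.40, between -0.45 and -0.033 under its alternatives, and -0.39 to -0.19 without s50_2 or s50_3. The number lowest on s50_1 and highest on s50_3 was 3, and 6 without the filter on low values, where the *mitf.L* values at the floor are included. It was 2 after quantile normalization and with a range of at least 0.5 or 1. The shares of all Xl-PSIDs with this order under these settings were not computed. These alternatives were chosen after seeing the data. The mean of a single member moved by less than its SD in 40 of 40 alternatives. With 3 arrays, leaving out 1 of them or taking their median cannot move a mean by a full SD. Only quantile normalization could therefore have given another outcome. The detected number of a list stayed within 1.5 times in 69 of 70. No paired analysis was possible because the series holds a single group. With 3 arrays no array was tested as an outlier.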
